A study of Homo sapiens with 6 samples.

Results

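The SLITRK, FLRT and LRIG genes encode single-pass membrane proteins that carry leucine-rich repeats outside the cell. The set held 9 listed genes, and 8 of them matched a row by Ensembl identifier among the 18677 rows of the count table: SLITRK1, SLITRK5, SLITRK6, FLRT2, FLRT3, LRIG1, LRIG2 and LRIG3. FLRT1 was not analysed here. The family was chosen by its counts in the SETDB1-knockout against the control libraries, because several members were higher from near 0. The values of that contrast are therefore given for the members as a description, without a test.

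The cells were H1299, a widely used human lung cancer cell line, and RNA-seq was run on 6 libraries of total RNA. The SETDB1 group held 3 libraries of cells with the guide RNA labelled hSETDB1 sg1, and the control group held 3 libraries of cells with the guide labelled Control sg2. Both groups grew in RPMI-1640 with serum, antibiotics and puromycin, so the controls also carried a guide and met the drug. SETDB1 encodes a histone methyltransferase that places the repressive mark H3K9me3. A single guide stood for each group. Whether a group was a clone or a pool of cells, and whether its libraries came from separate cultures, is not stated in the labels, so p-values measure only the spread between these samples, which may be technical.

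SLITRK proteins sit mainly in neurons, where they bind receptor phosphatases of the LAR family across the synapse and shape neurite growth and synapse formation. FLRT proteins bind latrophilins, UNC5 receptors and teneurins on neighbouring cells and guide migrating cells and axons. LRIG proteins act in many epithelia, where LRIG1 is known for lowering the amount of EGFR-family receptors and restraining growth signals.

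Library totals ranged from 29532057 to 35941288 counts, so that 1 count was worth 0.0282 to 0.0334 CPM, the count scaled to a fixed library total after TMM normalization. SETDB1 ranged from 36.1 to 40.6 CPM in the knockout libraries and from 41.6 to 45.01 CPM in the controls, a log2 fold change of -0.17 ± 0.06 (SE; edgeR adjusted p = 0.0151). An edit that shifts the reading frame need not lower the RNA, so this checks the labels only in part. Of 6 genes listed as markers of epithelial cancer cells, 4 were measured. The keratin genes KRT8 and KRT18 and the filament gene VIM were abundant. EPCAM was at 0.254 ± 0.0765 CPM in the controls (SD, n = 3), and KRT19 and CDH1 were not analysed here. KRT8 fell from 367 ± 9.58 to 157 ± 0.703 CPM, KRT18 from 599 ± 30.7 to 332 ± 6.43 CPM and VIM from 2430 ± 61.3 to 2216 ± 58.5 CPM (edgeR adjusted p = 1.02e-13, 6.53e-11 and 0.0441). The summed level of the listed genes was 2633 to 2755 CPM in the knockout and 3325 to 3513 CPM in the controls. Most of it was VIM, which is not specific to epithelial cells, so the sum is no measure of an epithelial state. Of 8 markers of blood, vessel and fibroblast cells 3 were measured, none at 0, with a summed level of 3.27 to 3.63 CPM in the knockout and 5.39 to 5.61 CPM in the controls. Of 8 neural markers 4 were measured, none at 0, and their summed level was 54.02 to 56.95 CPM in the knockout and 37.1 to 39.5 CPM in the controls. The vesicle genes SNAP25 and SYT1 and the tubulin gene TUBB3 rose, and the myelin gene MBP fell (edgeR adjusted p = 1.59e-09, 6.20e-13, 0.0237 and 2.81e-10). The part of these markers in the results below was not tested.

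The sequences in front of 5 members are shown first, because they set members that were near 0 in control cells beside one that was already on. They are RefSeq sequences of build GRCh38.p14, 5′ to 3′ on the gene's own strand, taken before the most upstream RefSeq start and without annotated untranslated bases. The capitals mark each CpG dinucleotide, the site of DNA methylation. SLITRK6 (chr13:85799489-85799669, minus strand), SLITRK1 (chr13:83882475-83882724, minus strand), FLRT2 (chr14:85529894-85530143, plus strand) and LRIG3 (chr12:58920523-58920754, minus strand) were near 0 in the controls, and SLITRK5 (chr13:87671121-87671370, plus strand) was not.
SLITRK6: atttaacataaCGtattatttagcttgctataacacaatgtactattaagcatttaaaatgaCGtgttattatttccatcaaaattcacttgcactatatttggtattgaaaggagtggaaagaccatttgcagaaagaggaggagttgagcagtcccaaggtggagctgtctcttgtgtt
SLITRK1: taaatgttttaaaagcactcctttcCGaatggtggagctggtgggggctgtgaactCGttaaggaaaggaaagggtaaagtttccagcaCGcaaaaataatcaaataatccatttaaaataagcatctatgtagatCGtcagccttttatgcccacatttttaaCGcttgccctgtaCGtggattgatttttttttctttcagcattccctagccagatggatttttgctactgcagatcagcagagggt
SLITRK5: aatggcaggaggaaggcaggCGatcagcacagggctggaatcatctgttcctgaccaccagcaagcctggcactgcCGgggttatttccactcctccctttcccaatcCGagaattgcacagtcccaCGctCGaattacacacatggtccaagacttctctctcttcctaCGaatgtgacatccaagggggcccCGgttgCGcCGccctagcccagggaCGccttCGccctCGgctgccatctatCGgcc
FLRT2: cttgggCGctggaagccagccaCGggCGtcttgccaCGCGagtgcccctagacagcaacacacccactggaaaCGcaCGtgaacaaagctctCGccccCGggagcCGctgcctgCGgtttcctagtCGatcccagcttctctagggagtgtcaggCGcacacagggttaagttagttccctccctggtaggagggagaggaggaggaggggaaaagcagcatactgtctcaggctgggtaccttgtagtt
LRIG3: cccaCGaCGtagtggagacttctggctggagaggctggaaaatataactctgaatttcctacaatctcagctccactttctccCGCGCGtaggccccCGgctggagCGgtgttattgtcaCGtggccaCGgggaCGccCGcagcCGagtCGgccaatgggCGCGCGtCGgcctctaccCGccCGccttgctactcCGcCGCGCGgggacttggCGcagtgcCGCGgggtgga

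The windows differed widely in CpG content. Over 300 bases around the start (250 before and 50 after), SLITRK6 had 4 CpGs, SLITRK1 had 7, SLITRK5 had 18, FLRT2 had 19 and LRIG3 had 31, against a median of 13 over 27305 genes with such a window. FLRT3 had 4, and LRIG1 and LRIG2, which were on in the controls, had 27 and 26. The 5 members under 1 CPM in control cells thus spanned 4 to 31 CpGs, from the 25.3rd to the 79.8th percentile of all windows, and the 3 members above that level lay inside that span. The ratio of observed to expected CpGs was 0.358 for SLITRK6, 0.523 for SLITRK1 and 1.04 for LRIG3, with a median of 0.577 over all genes.

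Of 5 short motifs searched on both strands, none of which contains another, the GC box GGGCGG was present in the windows of SLITRK5, LRIG1, LRIG2 and LRIG3 and in 44.5% of all windows. CCAAT was present in the same 4 members and in 35.7% of all windows. SLITRK6 held TGACTCA, the AP-1 element, which 4.90% of all windows hold. No copy lies wholly within the SLITRK6 bases printed above, so the match includes bases of the window that were left out there. TATAAA, found in 3283 of the 27305 windows, and TGACGTCA, found in 1.97%, were in none of the 8 measured members. The SLITRK6 window belongs to a RefSeq start 7264 bases from the outermost start in the GENCODE 29 annotation, and that of SLITRK5 lies 1244 bases from it, whereas the other 6 measured members lay within 142 bases. The SLITRK5 and FLRT2 windows also hold the annotated starts of non-coding genes on the opposite strand, MIR4500HG (at 87671259) and AL049775.1 (at 85529988). The LRIG2 window holds the start of AL357055.3 (at 113073105), also on the opposite strand. The values of all of these genes are given further on.

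The members fell into those that were near 0 in control cells and those that were already expressed. In the fit over all genes, 5 of the 8 had a fitted fold of at least 2 higher in the SETDB1 knockout, a size reached by 7.14% of the genes tested, and 0 were lower by as much, against 5.78%. With edgeR's quasi-likelihood test and p-values adjusted over all genes tested, 6 were past the threshold of 0.05 as higher and 1 as lower, against 31.9% and 31.6% of all genes tested and 63.5% in either direction. Every knockout library stood above every control for 6 members and below for 1, against 33.5% and 33.3% of all genes tested and 66.8% in either direction. Since this contrast chose the family, nothing is read from these shares. All 8 passed the filter on low counts, but only 3 (SLITRK5, LRIG1 and LRIG2) were above its cutoff of 0.306 CPM in every control library. A higher level in bulk RNA can come from more cells that express a gene or from more RNA per cell, and these cannot be told apart here.

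**Figure D1:**
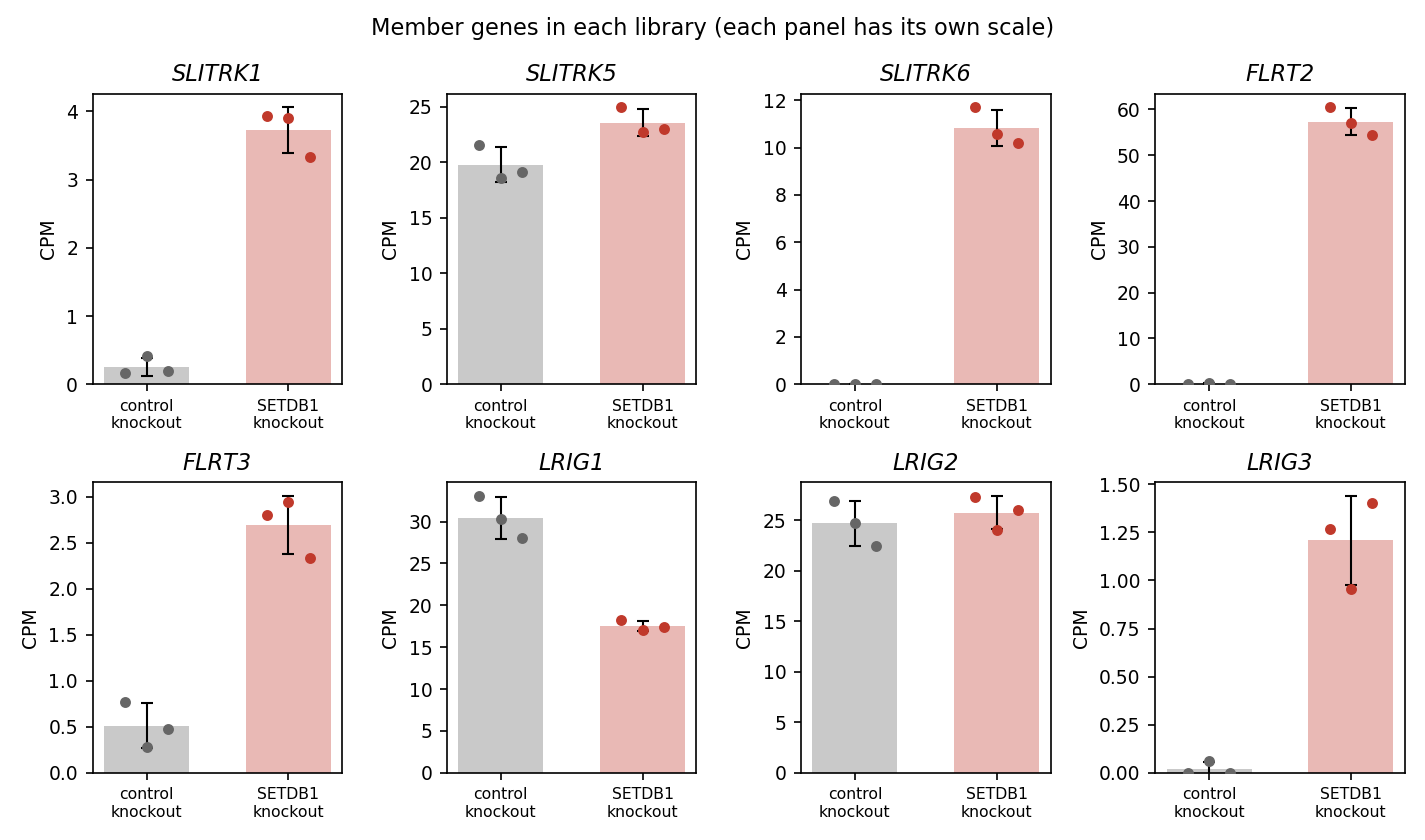
CPM of the 8 measured members in each of the 3 control and 3 SETDB1-knockout libraries (points), with the group mean (bar, from 0) and SD (line); each panel has its own scale. SLITRK6, SLITRK1, FLRT2, FLRT3 and LRIG3 stand near 0 in the controls, LRIG1 is lower in the knockout, and the groups overlap for LRIG2.

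SLITRK6 (ENSG00000184564, GRCh38 chromosome 13, 85792787 to 85806683, minus strand), a gene known for its role in the inner ear and retina, had 0 counts in all 3 control libraries and 351, 366 and 349 counts in the SETDB1 libraries. That is 11.7, 10.6 and 10.2 CPM in the knockout. Against a floor of 3 counts summed over the controls, SLITRK6 was at least 349-fold higher. All 3 knockout libraries lay within a narrow range, with an SD of 7.15% of the mean.

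SLITRK1 (ENSG00000178235, GRCh38 chromosome 13, 83877205 to 83882393, minus strand), which promotes neurite outgrowth, stood at 3.93, 3.90 and 3.34 CPM in the SETDB1 libraries and at 0.167, 0.410 and 0.198 CPM in the controls. The lowest knockout library was above the highest control, and the counts per group were 367 and 25. The log2 fold change was 3.83 ± 0.23 (SE). The control level was not 0 in any library, unlike that of SLITRK6.

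SLITRK5 (ENSG00000165300, GRCh38 chromosome 13, 87672615 to 87696272, plus strand), which acts at synapses of the striatum, was expressed in both groups. Its level was 24.96, 22.7 and 23.00 CPM in the knockout and 21.6, 18.6 and 19.2 CPM in the controls. The groups did not overlap, but they were close, with a log2 fold change of 0.25 ± 0.07 (SE). Of the 3 SLITRK members it was the one already on in the controls and the one with the smallest fitted change.

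FLRT2 (ENSG00000185070, GRCh38 chromosome 14, 85530144 to 85654426, plus strand), a ligand of UNC5 receptors and latrophilins in migrating cells, was near 0 in all control libraries. It stood at 60.5, 57.1 and 54.5 CPM in the knockout and at 0.0667, 0.221 and 0.141 CPM in the controls. The counts per group were 5651 and 14, a ratio of 397 (exact 95% counting interval 236 to 726, counting error only). The log2 fold change was 8.60 ± 0.14 (SE).

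FLRT3 (ENSG00000125848, GRCh38 chromosome 20, 14322988 to 14337616, minus strand), which takes part in FGF signalling and cell adhesion in embryos, stood at 2.80, 2.95 and 2.34 CPM in the knockout and at 0.767, 0.284 and 0.480 CPM in the controls. The groups did not overlap, and the log2 fold change was 2.41 ± 0.23 (SE). FLRT3 lies inside MACROD2 on the opposite strand. MACROD2, a mono-ADP-ribosylhydrolase gene, rose as well, from 0.217 ± 0.114 to 0.560 ± 0.0711 CPM (log2 fold change 1.35 ± 0.35, SE; edgeR adjusted p = 0.00247), and without a stated strand setting the reads of both genes may be mixed. FLRT1, the member not analysed here, lies in the same way inside MACROD1, which rose 1.93-fold to 6.04 ± 0.557 CPM (edgeR adjusted p = 1.61e-06). The non-coding gene AP006333.1, which also overlaps FLRT1, was not called (-0.31 ± 0.37, SE; edgeR adjusted p = 0.483).

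LRIG3 (ENSG00000139263, GRCh38 chromosome 12, 58872149 to 58920522, minus strand), known for a part in shaping the inner ear, stood at 1.27, 0.953 and 1.40 CPM in the knockout. In the controls it had 2 counts in replicate 2 and 0 in the other libraries. The counts per group were 119 and 2, a ratio of 58.5 (exact 95% counting interval 15.8 to 488). Without control replicate 2 the control group is at 0, and LRIG3 was then at least 26.3-fold higher against the same floor of 3 counts.

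LRIG1 (ENSG00000144749, GRCh38 chromosome 3, 66378797 to 66501263, minus strand), the member known as a brake on EGFR, went the other way. It stood at 18.2, 17.05 and 17.4 CPM in the SETDB1 libraries and at 33.1, 30.3 and 28.04 CPM in the controls, so every knockout library was below every control. Its log2 fold change was -0.79 ± 0.07 (SE). SLC25A26, the mitochondrial S-adenosylmethionine carrier gene whose span overlaps the end of LRIG1 on the opposite strand, rose from 6.59 ± 0.496 to 10.1 ± 0.503 CPM (log2 fold change 0.62 ± 0.09, SE; edgeR adjusted p = 3.61e-06).

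LRIG2 (ENSG00000198799, GRCh38 chromosome 1, 113073209 to 113132260, plus strand), linked to growth factor signalling, stood at 27.3, 24.01 and 26.01 CPM in the knockout and at 26.96, 24.7 and 22.5 CPM in the controls. The groups overlapped, and the log2 fold change of 0.06 ± 0.07 was within its SE. The LRIG genes thus showed 3 patterns in the same libraries: LRIG3 near 0 in the controls and higher in the knockout, LRIG1 lower, and LRIG2 with overlapping groups.

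Levels between members were compared per kb of annotated exon, since their transcripts differ in length. In the controls LRIG1 was the most abundant at 4.33 ± 0.358 CPM per kb, then LRIG2 at 1.99 ± 0.179 and SLITRK5 at 0.937 ± 0.0741. The other 5 were far below, with FLRT3 at 0.0984 ± 0.0469, SLITRK1 at 0.0498 ± 0.0255, FLRT2 at 0.00409 ± 0.00221, LRIG3 at 0.00357 ± 0.00618 and SLITRK6 at 0. FLRT3 and SLITRK1 did not differ beyond their summed SDs. FLRT2, LRIG3 and SLITRK6, with a floor of 0.00691 CPM per kb for SLITRK6, could not be ordered at this depth.

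In the SETDB1 knockout the order of levels per kb was LRIG1 at 2.50 ± 0.0862, SLITRK6 at 2.42 ± 0.173, LRIG2 at 2.07 ± 0.133, FLRT2 at 1.64 ± 0.0861, SLITRK5 at 1.12 ± 0.0576, SLITRK1 at 0.717 ± 0.0647, FLRT3 at 0.519 ± 0.0609 and LRIG3 at 0.205 ± 0.0392 CPM per kb. LRIG1 and SLITRK6 did not differ beyond their summed SDs, and all other neighbours in this order did. SLITRK6 therefore went from no counts to a level per kb beside that of the most abundant member. With the length of the longest principal transcript in place of all exons, an alternative chosen after seeing the data, the order was the same, but LRIG1 at 3.33 ± 0.115 then stood above SLITRK6 at 2.51 ± 0.179 CPM per kb by more than their SDs, and SLITRK6 no longer differed from LRIG2 at 2.23 ± 0.143 beyond their summed SDs. FLRT2 is annotated with 34899 exon bases and SLITRK5 with 21103, so their levels per kb depend on very long annotated transcripts.

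**Figure D2:**
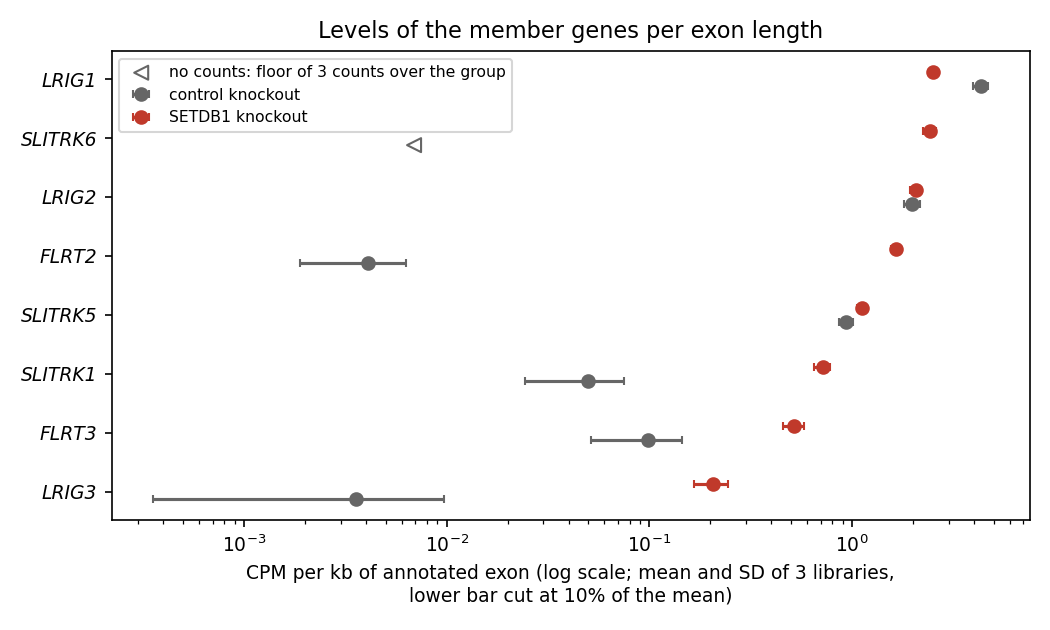
Mean and SD of CPM per kb of annotated exon (log axis) for the 8 measured members in the control (grey) and SETDB1-knockout (red) libraries, n = 3 each; the open triangle is the floor of 3 counts summed over the controls for SLITRK6. The red points lie between 0.205 and 2.50, while the grey points span from 0.00357 to 4.33.

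SLITRK1, SLITRK6 and SLITRK5 lie in a row on chromosome 13, in a stretch of 3.82 Mb that holds no other annotated protein-coding gene. The gaps between them are 1.91 and 1.87 Mb. The nearest tested gene on each side of these members gave 4 genes, of which 3 were long non-coding RNA genes that rose. Only genes past the filter on low counts could be taken, so a neighbour silent in both groups could not appear. LINC00351, MIR4500HG and AL445647.1 all passed it through the knockout libraries alone, so their number is a description. LINC00351, 248 kb from SLITRK6, had 0 counts in the controls and 32, 44 and 54 counts in the knockout, at least 42.6-fold higher (edgeR adjusted p = 3.83e-09). MIR4500HG, which starts 1.36 kb before SLITRK5 on the other strand, had 5 control and 56 knockout counts, a ratio of 11.01 (exact 95% counting interval 4.45 to 35.2; edgeR adjusted p = 2.92e-05). AL445647.1, 111 kb beyond SLITRK5, had 0 control counts and 42, 42 and 30 knockout counts, at least 37.3-fold higher (edgeR adjusted p = 1.13e-08). SLITRK5 thus differed little between a pair of neighbours that rose from at or near 0. The fourth, the prothymosin pseudogene PTMAP5 beyond SLITRK1, was not called (-0.43 ± 0.20, SE; edgeR adjusted p = 0.0899), and its groups overlapped.

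Farther out most genes lay at or below 0. Of 42 tested genes within 12 Mb of the SLITRK6 start, 5 lay in the SLITRK stretch and 37 outside it. Of those outside, 21 were lower, 4 were higher and 12 were not called, with a median log2 fold change of -0.26, against 31.6% lower and 31.9% higher over all genes tested. The 4 higher ones, named after their values were seen, were AL445647.1, COMMD6, DNAJC3-DT and SP3P. SP3P, a processed pseudogene 3.56 Mb from SLITRK6, had a mean of 1.46 CPM in the knockout and 0 counts in the controls (edgeR adjusted p = 9.73e-10). Like AL445647.1, SP3P passed the filter on low counts through the knockout libraries alone, so its rise is a description.

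**Figure D3:**
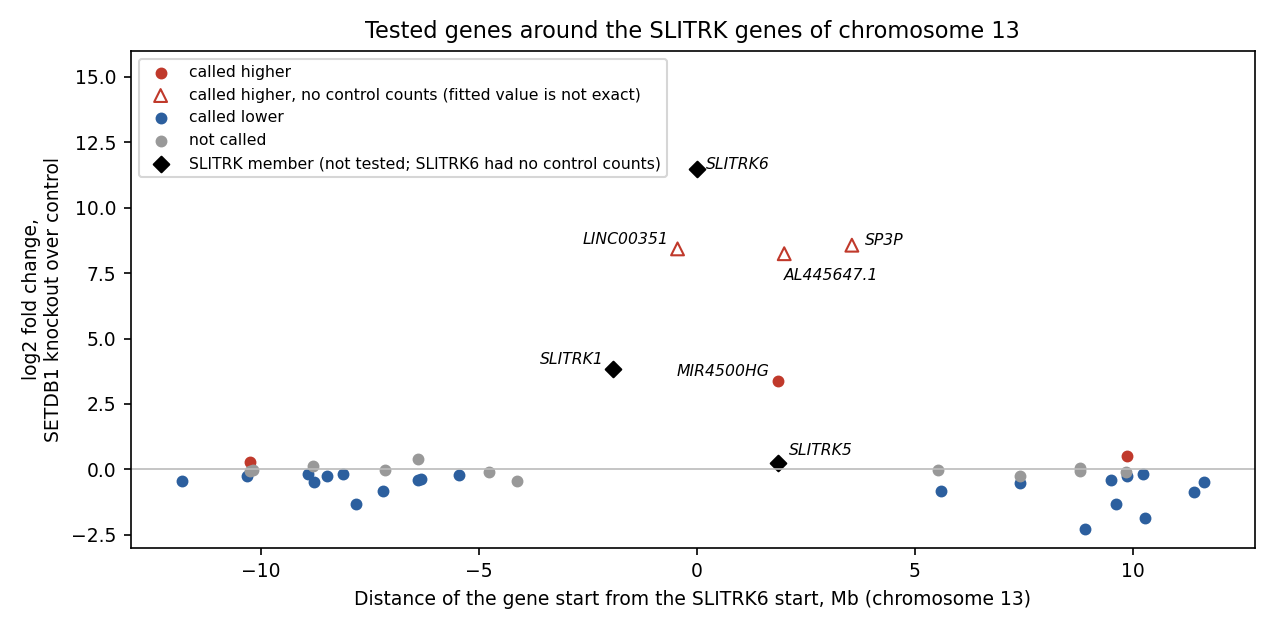
Log2 fold change (SETDB1 knockout over control) of the 42 tested genes within 12 Mb of the SLITRK6 start on chromosome 13, by distance in Mb. Black diamonds are the SLITRK members, filled points were called higher (red), lower (blue) or not called (grey), and open triangles mark genes called higher with no control counts, whose fitted value, like that of SLITRK6, is no measure of the fold. The genes with large positive values lie between -2 and 4 Mb, with SLITRK5 near 0 among them.

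Beside FLRT2 on chromosome 14, the divergent non-coding gene AL049775.1, 0.156 kb from the FLRT2 start, also rose. It had 0 counts in the controls and 32, 39 and 40 in the knockout, at least 36.4-fold higher (edgeR adjusted p = 3.61e-09). LINC02328, 280.3 kb beyond FLRT2, rose from 9 to 59 counts per group (edgeR adjusted p = 1.40e-04). The ratio was 6.44 (exact 95% counting interval 3.17 to 14.8), and 7 of the 9 control counts came from control replicate 1. Both genes were under the cutoff of the filter on low counts in every control library and passed it through the knockout libraries alone. A neighbour silent in both groups could not appear, so these rises are a description.

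Beside LRIG3, the monocarboxylate transporter gene SLC16A7, 676 kb away, rose from 44 to 526 counts per group (ratio 11.7, exact 95% counting interval 8.63 to 16.4; edgeR adjusted p = 1.70e-12), while ATP23 on the other side did not pass (log2 fold change 0.07 ± 0.09, SE; edgeR adjusted p = 0.540). Both neighbours of LRIG2 were not called: AL357055.3, which starts 0.104 kb from it, and MAGI3, a scaffold protein gene (edgeR adjusted p = 0.462 and 0.796). Beside LRIG1, the scaffold gene MAGI1 was not called, and KBTBD8, a ubiquitin ligase adaptor gene, rose by 1.02 ± 0.08 on the log2 scale (edgeR adjusted p = 0.164 and 1.87e-09). Next to FLRT3, NDUFAF5, a complex I assembly gene, fell (-0.30 ± 0.07) and the kinesin gene KIF16B rose (0.87 ± 0.07), both log2 fold changes with SE (edgeR adjusted p = 7.12e-04 and 1.06e-09). Next to FLRT1, the deubiquitinase gene OTUB1 rose 1.32-fold and the co-chaperone gene STIP1 rose 1.25-fold (edgeR adjusted p = 1.91e-06 and 3.08e-05).

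The wider surroundings were read from the 50 nearest genes, 25 on each side, with a mean log2 CPM above 3. Their median log2 fold change was -0.19 around SLITRK6, -0.20 around SLITRK5 and -0.35 around FLRT2, where 38 were lower and 2 higher. It was 0.19 around FLRT3, 0.22 around LRIG2 and 0.12 around LRIG1. Around LRIG3, 20 neighbours were higher and 21 lower. The counts higher and lower were 6 and 26 around SLITRK6, 5 and 27 around SLITRK5, and 28 and 17 around FLRT3. They were 32 and 8 around LRIG2, and 23 and 11 around LRIG1. Over all genes tested, 31.9% were higher and 31.6% lower, a share that includes genes below the log2 CPM limit used here. SLITRK1 and SLITRK6 have the same 50 neighbours. Members that were higher in the knockout thus had neighbours with medians below 0 (SLITRK6, SLITRK1, SLITRK5 and FLRT2), above 0 (FLRT3) and close to 0 (LRIG3).

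Of the other SLITRK genes, 3 were not among the members, and all 3 rose, against 31.9% of all genes tested. SLITRK4 on the X chromosome had 0 control counts and stood at 1.43, 1.73 and 1.61 CPM in the knockout, at least 51.8-fold higher (edgeR adjusted p = 4.98e-10). SLITRK2, also on the X chromosome, had 0 control counts and 0.467, 0.636 and 0.790 CPM, at least 20.6-fold higher (edgeR adjusted p = 3.28e-07). SLITRK3 on chromosome 3 rose from 0.574 ± 0.0727 to 2.01 ± 0.356 CPM, 3.45-fold (edgeR adjusted p = 3.87e-07). With the members, which this contrast chose, all 6 SLITRK genes were higher in the knockout, against the same 31.9%. SLITRK2, SLITRK4 and SLITRK6 had no control counts and passed the filter on low counts through the knockout libraries alone. The SLITRK genes were listed with earlier results of the data known, so this count is a description.

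The receptor phosphatases that SLITRK proteins bind did not move together: 2 of the 3 rose and 1 fell, against 31.9% and 31.6% of all genes tested. PTPRD rose from 3.50 ± 0.521 to 15.5 ± 0.636 CPM, 4.45-fold, and PTPRS rose from 5.06 ± 0.478 to 18.9 ± 0.556 CPM, 3.74-fold (edgeR adjusted p = 2.65e-13 and 1.65e-13). PTPRF, the LAR gene itself, stood at 1007 ± 38.3 CPM in the knockout and 1404 ± 147 CPM in the controls, and fell (log2 fold change -0.48 ± 0.07, SE; edgeR adjusted p = 3.85e-06). For each of them the knockout and control libraries were fully separated, as they were for 66.8% of all genes tested in either direction.

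Genes for FLRT binding partners rose in 8 and fell in 1 of 10 tested, with a median log2 fold change of 0.68 against 0.01 over all genes tested, of which 31.9% rose and 31.6% fell. Of the 14 listed, UNC5A, UNC5B and UNC5D were not analysed here, and UNC5C was removed by the filter on low counts. ADGRL3, TENM1 and TENM4 were under its cutoff of 0.306 CPM in every control library and passed it through the knockout libraries alone. The count and median of this list are therefore a description. ADGRL3, a latrophilin that FLRT3 binds, had 0 counts in the controls and 4.17, 3.64 and 3.83 CPM in the knockout, at least 125-fold higher (edgeR adjusted p = 1.69e-12). TENM1, a teneurin gene on the X chromosome, stood at 19.6, 17.8 and 19.4 CPM in the knockout and at 0.200, 0.126 and 0.0847 CPM in the controls, a log2 fold change of 7.10 ± 0.17 (SE; edgeR adjusted p = 1.12e-17). FGFR1, the FGF receptor gene, was the one that fell (-0.42 ± 0.06 on the log2 scale; edgeR adjusted p = 6.04e-06). The small GTPase gene RND1 was the one not called (0.18 ± 0.18; edgeR adjusted p = 0.385). Other partner genes were well expressed in the controls, among them ADGRL1 at 68.3 ± 5.25, ADGRL2 at 81.2 ± 5.84, ROBO1 at 70.1 ± 3.18 and TENM3 at 40.6 ± 2.81 CPM.

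Of 8 LRIG partners tested, 2 were higher, 3 lower and 3 not called, with a median of -0.04. The 5 called are near the share of 63.5% called over all genes tested, so the count shows nothing about the list. EGFR stood at 185, 163 and 163 CPM in the knockout and at 396, 360.1 and 337 CPM in the controls, and fell, with a log2 fold change of -1.10 ± 0.07 (SE; edgeR adjusted p = 1.97e-11). EGFR and LRIG1 were thus both lower in the SETDB1 knockout. NEO1, which encodes the guidance receptor neogenin, rose 2.91-fold to 37.3 ± 3.62 CPM, and ERBB3 rose 1.63-fold to 10.1 ± 1.04 CPM (edgeR adjusted p = 8.01e-13 and 1.33e-06). The ubiquitin ligase gene CBL fell slightly (-0.18 ± 0.05; edgeR adjusted p = 0.00354), as did the deubiquitinase gene USP8 (-0.16 ± 0.05; edgeR adjusted p = 0.0123), whose call was lost with library totals unscaled. ERBB2 at 55.3 ± 2.99 and 56.3 ± 2.55 CPM and MET at 219 ± 11.9 and 227 ± 11.4 CPM, in the knockout and the controls, were not called, nor was ERBB4, which was under 1 CPM in both groups.

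Feedback inhibitors of receptor tyrosine kinases, genes that growth signals switch on and that then damp them, were higher in 4 and lower in 6 of 12 tested, with a median of -0.16. The share that rose is close to the 31.9% of all genes tested, of which 31.6% fell. The phosphatase gene DUSP5 fell from 154 ± 7.53 to 58.9 ± 1.63 CPM (log2 fold change -1.39 ± 0.05, SE; edgeR adjusted p = 3.16e-14). The Sprouty genes SPRY1 and SPRY4 rose 1.63-fold and 1.54-fold (edgeR adjusted p = 5.46e-06 and 8.24e-09), whereas SPRY3 fell (-0.98 ± 0.24; edgeR adjusted p = 0.00134). SPRY3 lies in a region shared by X and Y, with a row for each copy among which its reads may be split, and the X row is given. ERRFI1, an EGFR inhibitor, and SPRED2 were the ones not called (edgeR adjusted p = 0.380 and 0.0892).

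**Figure D4:**
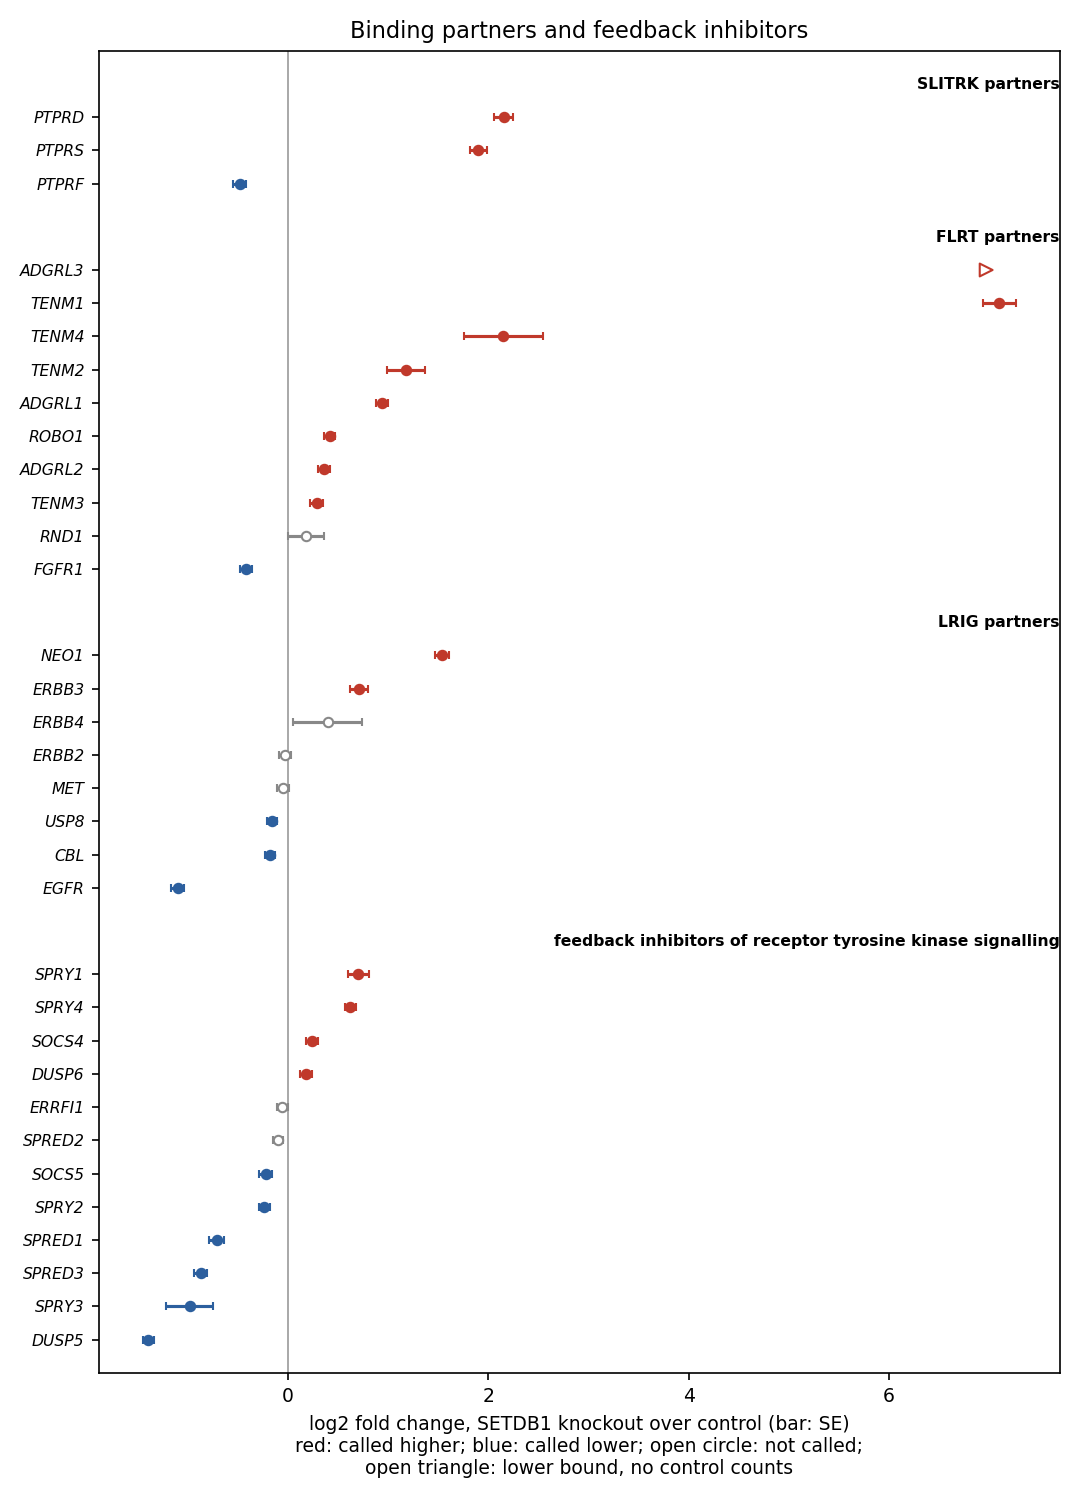
Log2 fold change (SETDB1 knockout over control, bar SE) of the tested partners of SLITRK, FLRT and LRIG proteins and of feedback inhibitors; red was called higher, blue lower, open circles were not called, and the open triangle is the lower bound of ADGRL3, which had no control counts. FLRT partners lie mostly to the right of 0, with TENM1 at 7.10, while LRIG partners lie on both sides, from NEO1 at 1.54 to EGFR at -1.10.

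Other neuronal receptors with leucine-rich repeats were higher in 9 and lower in 5 of 15 tested, against 31.9% and 31.6% of all genes, with a median of 0.49; the share that fell is near that of all genes. Of this family 35 were listed and 18 were in the table, with SLITRK2, SLITRK3 and SLITRK4 from above among the rises. RTN4R, the Nogo receptor gene, fell to 1.33 ± 0.126 CPM (log2 fold change -1.21 ± 0.14, SE) and ELFN1 fell to 14.00 ± 1.02 CPM (-0.94 ± 0.08, SE; edgeR adjusted p = 4.48e-07 and 6.76e-09). LRRTM4, a postsynaptic organiser named after its values were seen, rose from 0.121 ± 0.0516 to 1.38 ± 0.197 CPM, 10.8-fold (edgeR adjusted p = 1.26e-08). LRRC4B was the one tested gene not called (0.19 ± 0.13; edgeR adjusted p = 0.212). LINGO2, LRRTM1 and LRRN4 were in the table but removed by the filter on low counts. SLITRK2, SLITRK4 and LRRTM4 were under its cutoff in every control library and passed it through the knockout libraries alone. The count and median of this list are therefore a description.

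Synapse organisers of other structure were higher in 4 and lower in 2 of 7 tested, against 31.9% and 31.6% of all genes, with a median of 0.46; the share that fell is near that of all genes. IL1RAPL1, which binds PTPRD as SLITRK proteins do, stood at 2.57, 2.25 and 2.22 CPM in the knockout and at 0.133, 0.0315 and 0.0282 CPM in the controls. All of these control values were under the cutoff of the filter on low counts, so IL1RAPL1 passed it through the knockout libraries alone. Its log2 fold change was 5.16 ± 0.33 (SE; edgeR adjusted p = 5.08e-11), and 6.12 without control replicate 1. CBLN2, a cerebellin gene, rose 11.2-fold to 3.85 ± 0.432 CPM (edgeR adjusted p = 1.29e-11). NLGN3, a neuroligin gene, and IL1RAP fell, with log2 fold changes of -0.98 ± 0.19 and -0.54 ± 0.06 (SE; edgeR adjusted p = 1.89e-04 and 8.30e-08). CBLN3 was not called (0.46 ± 0.23; edgeR adjusted p = 0.0932).

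**Figure D5:**
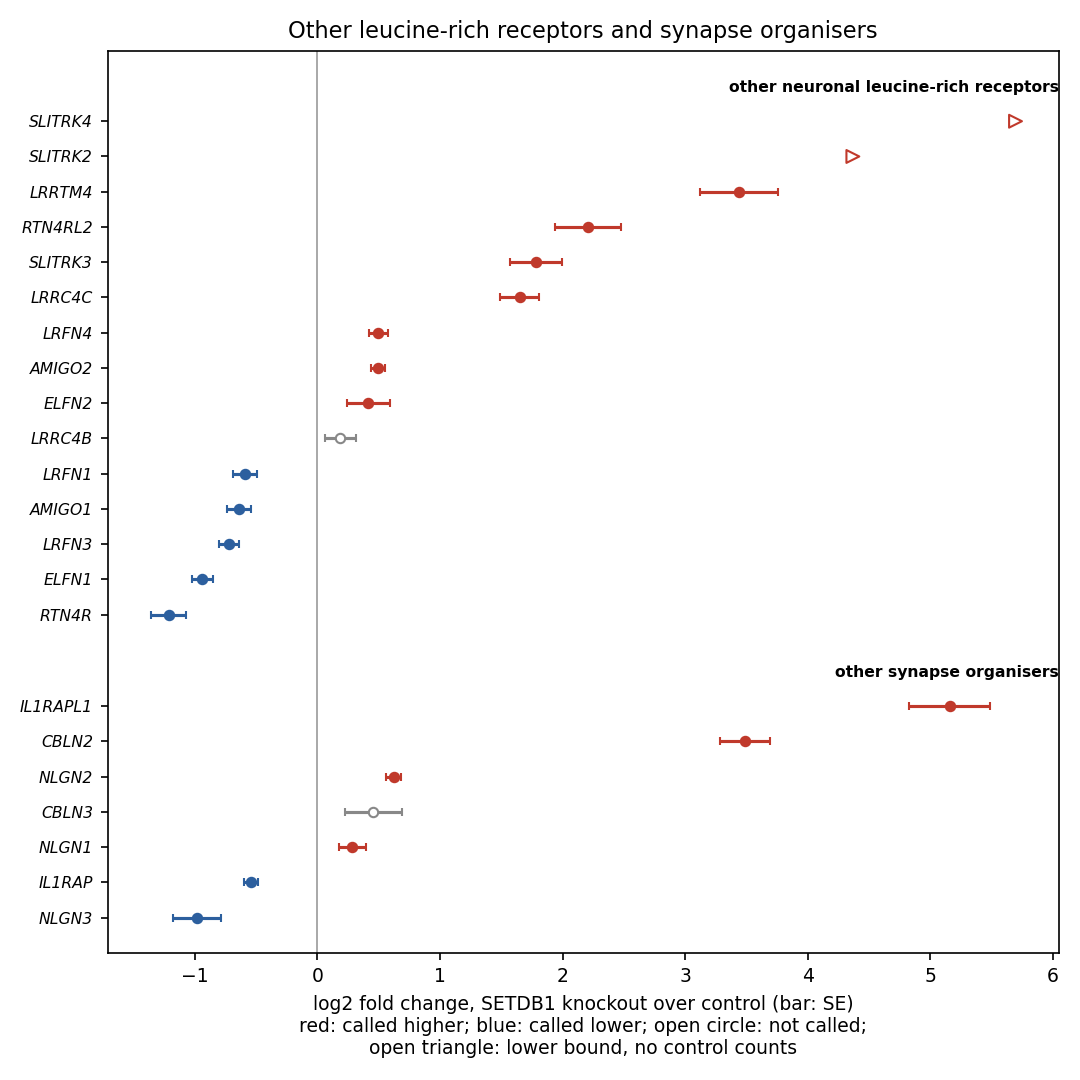
Log2 fold change (SETDB1 knockout over control, bar SE) of other tested leucine-rich receptors of neurons and of other synapse organisers; red was called higher, blue lower, open circles were not called, and open triangles are lower bounds for genes with no control counts. IL1RAPL1 at 5.16 and LRRTM4 at 3.44 lie far to the right, and RTN4R at -1.21 lies farthest to the left.

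The genes whose levels over the 6 libraries lay nearest to those of 1 member of each family, the one with the highest mean CPM, were found by the Euclidean distance of log2 CPM. For FLRT2 they were FSTL5, a follistatin-like gene, CTCFL, the germline paralog of CTCF, and PRSS21, a testis serine protease gene, at distances of 2.74, 2.83 and 2.95. CTCFL stood at 132 ± 8.76 CPM in the knockout and 0.218 ± 0.120 CPM in the controls. FSTL5 and PRSS21 were under the cutoff of the filter on low counts in every control library and passed it through the knockout libraries alone. The libraries that chose the family also set these distances, so the genes nearest to FLRT2 are a description. For SLITRK5 the nearest were ALKBH2, ABCA7 and ZNF844 at distances from 0.0924 to 0.117. For LRIG2 they were PRDM15 and the near-identical MAGED4 and MAGED4B, whose reads the counting may split, at 0.135 to 0.144. Distances were thus short around SLITRK5 and LRIG2, whose levels were close in all 6 libraries, and long around FLRT2.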

How the data were processed

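RNA-seq of 6 H1299 libraries was used. Groups and replicate numbers come from the sample titles. The authors deposited raw read counts, 1 row per Ensembl gene. FastQC, TopHat2, HTSeq and GRCh38.p7 are named in the submitters' processing notes; versions, settings and strand handling are not given there. Every row had a library with at least 11 counts. Identifiers without version were matched to GENCODE 29 (GRCh38), which named 18595 of 18677 rows.

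Tests used R 4.3.3 and edgeR 4.0.16: filterByExpr (17675 genes kept), TMM, robust quasi-likelihood fits, Benjamini-Hochberg adjustment over all genes and a threshold of 0.05. An SE is the log2 fold change divided by the square root of the F statistic. Where a group had 0 counts, the fold is a lower bound at a floor of 3 counts over the group. Intervals and floors cover counting error only. The steps were tested on simulated data. Changes were planted only in genes with control counts well above 0, so rises from 0 or near 0 were not covered. Limma 3.58.1 and DESeq2 1.42.0 were alternatives.

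Members and lists were chosen with earlier results of these data known. Named genes are the members, up to 2 called rises and 2 called falls with the largest change per list, overlapping and flanking genes, and the 3 nearest in pattern. RND1, ERBB2, ERBB4, MET, USP8, ERRFI1, SPRED2, LRRC4B and CBLN3, named to spell out small counts, and ADGRL1, ADGRL2, ROBO1 and TENM3 were chosen after their values were seen. Promoter sequences and starts are RefSeq's (GRCh38.p14), and all 9 listed genes matched. Protein sequences were not used here.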

Additional observations from a re-analysis of the deposited data

How the results depend on the processing

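All counts of called genes for the 6 lists and for all genes tested stayed within 1.5 times the reported count under other scalings, filters, tools, a threshold of 0.01 and each library left out; called genes over the whole table ranged from 4730 to 6155 higher and from 4724 to 5839 lower. Same-numbered replicates did not all pair, with correlations of 0.393, -0.153 and 0.199. SETDB1 replicates 1 and 3 were closest to the control of the same number, whereas SETDB1 replicate 2 was closest to control replicate 3. With the replicate number as a block 5864 genes were higher and 5839 lower, with no list count changed. Of the listed genes, USP8 lost its call without scaling factors (-0.12) and DUSP6 without SETDB1 replicate 2 (0.12). ELFN2, at 0.42, lost its call under DESeq2 and without SETDB1 replicate 1 or 3 or control replicate 2 or 3 (0.25 to 0.44). NLGN1, at 0.29, lost its call under DESeq2 and without SETDB1 replicate 2 or control replicate 1 or 3 (0.17 to 0.27). TENM4 moved from 2.15 to 2.79 on the log2 scale without control replicate 3. No member past the threshold changed direction; LRIG2, whose groups overlap, stood at -0.16 with the median of its neighbours taken out. Depth limits LRIG3, FLRT2 and SLITRK6 in the controls, which had 2, 14 and 0 counts over the group.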
